A study of Mus musculus with 5 samples.

Results

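The genes described here are 10 members of the Smad pathway, the route by which transforming growth factor beta (TGF-beta) acts on transcription, together with its inhibitors. They are the ligand gene Tgfb1, the receptor genes Tgfbr2 and Tgfbr1, the signal-carrying Smad2, Smad3 and Smad4, the inhibitory Smad6 and Smad7, and the nuclear corepressors Ski and Skil. Smad2, Smad4 and Smad7 lie on chromosome 18, Tgfbr2, Smad3 and Smad6 on chromosome 9, Tgfbr1 and Ski on chromosome 4, Skil on chromosome 3 and Tgfb1 on chromosome 7. The members were taken by symbol from 33894 genes in the files, and all 10 passed the filter on low counts. The group was selected on the measured levels of Skil and Smad7, which were higher in the dKO-labelled libraries, so the values of those genes between the groups are given as a description and support nothing.

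RNA was sequenced from haematopoietic stem cells of mouse bone marrow, sorted as CD34-Flt3- Lin- Sca1+ cells with high c-Kit. The 3 libraries labelled dKO came from 8-week-old mice that were floxed at both Wnt co-receptor genes (Lrp5 fl/fl Lrp6 fl/fl) and carried Vav-cre, a transgene that expresses Cre recombinase in blood cells. The 2 libraries labelled WT came from wild-type mice of the same age, for which the labels name no Cre, so loss of the genes and the transgene cannot be told apart. Each library was made by Smart-seq2 from 6K cells, and the labels do not say that each came from its own mouse. P-values therefore measure only the spread between these samples, which may be technical.

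TGF-beta binds a type II receptor, which activates a type I receptor. That kinase phosphorylates Smad2 and Smad3, which join Smad4 and enter the nucleus. The pathway restrains itself: Smad6 and Smad7 block signalling at the receptors, while Ski and Skil (also called SnoN) bind Smad complexes on DNA and repress transcription. Smad7 and Skil are themselves known targets of the pathway. In the bone marrow TGF-beta is known for holding stem cells in a non-dividing state.

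Depth was lowest in dKO replicate 2, at 16028512 counts, and highest in WT replicate 2, at 28027458. The dKO-labelled libraries had between 12894 and 16098 genes with at least 1 count, dKO replicate 2 the fewest, and libraries labelled WT had 14934 and 14778. In log2 CPM (counts scaled to library size by TMM), the highest correlation across genes of dKO replicate 2 with any other was 0.851, and that of each remaining library was at least 0.883. Granulocyte progenitor markers, summed over 8 genes, reached 11107 to 15761 CPM in the dKO-labelled libraries, against 6471 CPM in WT replicate 1 and 42271 CPM in WT replicate 2. The targeted genes were not lower in the dKO-labelled libraries. Lrp6 had 790, 260 and 767 counts there and 660 and 232 in WT, and Lrp5 had 37, 2 and 71 counts there and 7 and 32 in WT. Counts summed over all exons say nothing on the loss of a floxed one, so every direction below rests on the labels. Of 12 stem cell markers, 6 (among them Hlf and Kit) had every dKO-labelled library above both WT libraries in CPM, against 13.7% of all tested genes. The others overlapped, and of these Ly6a and Ctnnal1 were highest in WT replicate 1. The summed level of the 12 was 1881 to 2039.8 CPM in the dKO-labelled libraries and 968 to 1401 CPM in WT.

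Compared per transcript length, in TPM (transcript abundance scaled to length and library), Smad2 was the most abundant member, with 42.1, 29.8 and 53.7 TPM in the dKO-labelled libraries and 49.9 and 34.9 TPM in WT. It exceeded the next gene, Tgfbr1, in 5 of 5 libraries. Tgfbr1, Smad3, Smad4, Smad7, Skil, Tgfbr2 and Ski followed, with means over the 5 libraries between 7.19 and 14.7 TPM. No neighbouring pair in that run kept 1 order in all libraries, and the gene with the higher mean led in 2 or 3 of 5. Smad6 averaged 1.49 ± 0.949 TPM and Tgfb1 1.43 ± 1.199 TPM (SD, n = 5), below Ski in all 5 libraries and 3 to 2 between themselves. By their means, Smad7 held position 4 and Skil position 5 in the dKO-labelled libraries, against positions 8 and 7 in WT. The position of Skil depends on the unit, as it averaged 22.4 CPM (without TMM scaling) for each TPM, against 1.63 for Smad2. In TMM-scaled CPM, which ignores length, Skil measured 128, 393 and 412 in the dKO-labelled libraries, above Smad2 at 57.1, 38.8 and 98.0. In WT it measured 68.0 and 48.3 CPM, below Smad2 at 77.7 and 76.1 CPM.

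**Figure D1:**
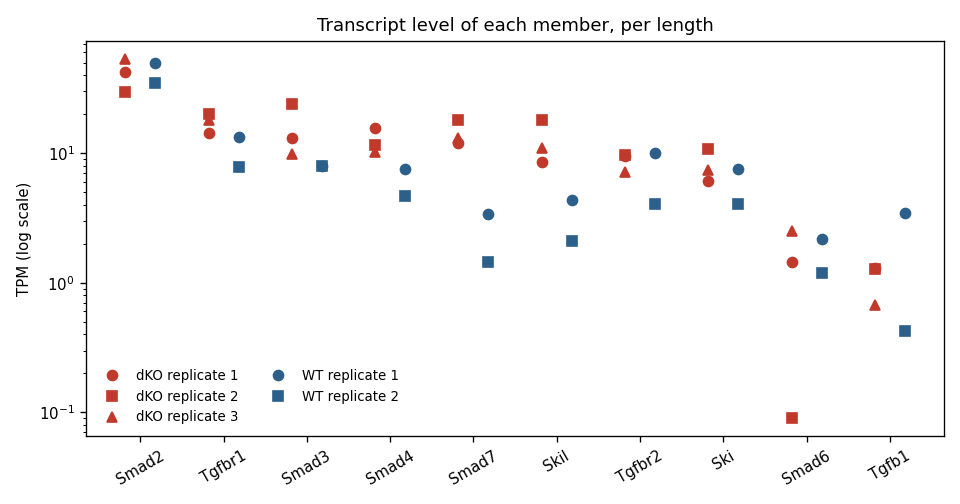
TPM on a log axis for each member in each library, with genes in the order of their mean over the 5 libraries; red marks are dKO-labelled libraries, blue marks WT. Smad2 lies above Tgfbr1 in every library, Smad6 and Tgfb1 lie lowest, and Smad7 and Skil are the genes of the middle group with the widest gap between the colours.

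Tgfb1, the ligand gene, was close to the detection limit. It had 34, 13 and 14 counts in the dKO-labelled libraries and 71 and 10 in WT, or 1.25, 0.786 and 0.519 CPM against 2.70 and 0.401 CPM. The groups overlapped, WT replicate 1 being the highest library and WT replicate 2 the lowest. The log2 fold change was -0.86 ± 1.63 (SE), and it was 1.08 without WT replicate 1. The WT libraries differed from each other by more than the group means did.

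Tgfbr2 encodes the type II receptor that binds the ligand. It measured 39.5, 39.2 and 32.8 CPM in the dKO-labelled libraries and 46.1 and 21.0 CPM in WT. The WT libraries lay on either side of all 3 others, and the log2 fold change was 0.15 ± 0.40 (SE), or -0.32 without WT replicate 2.

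Tgfbr1 encodes the type I receptor kinase. It measured 39.7, 55.7 and 58.4 CPM in the dKO-labelled libraries and 41.4 and 28.0 CPM in WT. Only dKO replicate 1 overlapped WT, and in TPM it did not, with 14.3, 19.9 and 18.1 TPM against 13.3 and 7.82 TPM. The log2 fold change from counts was 0.56 ± 0.34 (SE), or 0.30 when WT replicate 2 was left out and 0.86 when WT replicate 1 was. The ratio of Tgfbr1 to Tgfbr2 in TPM overlapped between groups, at 1.501 to 2.53 in the dKO-labelled libraries and 1.32 and 1.92 in WT.

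Smad2 and Smad3 are the Smads that the receptor phosphorylates. Smad2 measured 57.1, 38.8 and 98.0 CPM in the dKO-labelled libraries and 77.7 and 76.1 CPM in WT. The libraries labelled dKO lay on both sides of WT, and the log2 fold change was -0.25 ± 0.39 (SE), or 0.016 without dKO replicate 2. Smad3 measured 33.7, 62.1 and 28.0 CPM in the dKO-labelled libraries and 22.5 and 26.2 CPM in WT. Its groups did not overlap, but dKO replicate 3 was close to WT replicate 2 and dKO replicate 2 stood far above the rest. The log2 fold change was 0.76 ± 0.43 (SE), or 0.35 without dKO replicate 2.

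The balance between these genes was most even in dKO replicate 2, where Smad2 had its lowest and Smad3 its highest level. In TPM, Smad2 exceeded Smad3 by 3.24, 1.24 and 5.49 times in the dKO-labelled libraries and by 6.30 and 4.4 times in the WT libraries. The ranges overlap through dKO replicate 3.

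Smad4 is the shared partner of the phosphorylated Smads. It measured 28.5, 18.6 and 23.0 CPM in the dKO-labelled libraries and 13.2 and 11.4 CPM in WT. The groups did not overlap, in CPM or in TPM (15.6, 11.6 and 10.3 TPM against 7.55 and 4.63 TPM). The log2 fold change was 0.93 ± 0.44 (SE) with an adjusted p of 0.526 (edgeR, quasi-likelihood, Benjamini-Hochberg over all genes). Leaving out 1 library gave between 0.76 and 1.07. A processed pseudogene on the opposite strand, AC132418.2, lies within or across the span of Smad4 in GENCODE M21, and Smart-seq2 in its standard form does not mark strand. Whether the pseudogene shares exon bases with Smad4, and so could add to its counts, was not tested. Of the 8 members other than Skil and Smad7, Smad4 had the lowest adjusted p, and those of the others reached 0.956 for Tgfbr2.

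Smad6, the inhibitory Smad best known for restraining bone morphogenetic protein (BMP) signals, had few counts. There were 54, 7 and 112 in the dKO-labelled libraries and 97 and 71 in WT, or 1.99, 0.423 and 4.15 CPM against 3.69 and 2.84 CPM. The libraries labelled dKO spanned both sides of WT. The log2 fold change was -0.57 ± 1.33 (SE), or -0.08 without dKO replicate 2 and -1.42 without dKO replicate 3.

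A promoter is shown for Smad6 because its sequence holds the palindrome GTCTAGAC, the element that Smad proteins are known to bind. The stretch runs from 250 bases before to 50 after the gene's start, at chr9:64022010-64022309 on the minus strand (RefSeq, GRCm38.p6), and capitals mark the palindrome.
Smad6: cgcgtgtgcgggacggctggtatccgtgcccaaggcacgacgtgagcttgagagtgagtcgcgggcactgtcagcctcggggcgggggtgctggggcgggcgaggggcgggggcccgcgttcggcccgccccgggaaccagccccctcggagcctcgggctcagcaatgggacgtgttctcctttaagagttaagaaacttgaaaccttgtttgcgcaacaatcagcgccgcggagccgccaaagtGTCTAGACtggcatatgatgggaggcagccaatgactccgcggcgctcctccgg
The palindrome reads the same on each strand, and 0.213% of 32851 promoters of that length hold it. The promoters of Tgfb1, Tgfbr2, Tgfbr1, Smad3 and Ski were also searched and have no match. The shorter box CAGACA, searched on both strands, is present in 21.0% of all promoters and in 1 of the 2 listed for Tgfbr1. Such matches describe the letters only. No promoter of Skil, Smad7, Smad2 or Smad4 was used here.

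Smad7, the general inhibitory Smad, is one of the genes that led to the choice of this group. It had 642, 657 and 873 counts in the dKO-labelled libraries and 209 and 95 in WT, or 23.7, 39.7 and 32.3 CPM against 7.94 and 3.81 CPM. The lowest dKO-labelled library lay well above the higher WT library. Smad7 averaged 31.9 ± 8.03 CPM in the dKO-labelled libraries (SD, n = 3) and 5.87 ± 2.92 CPM in WT (SD, n = 2). This is a 5.43-fold difference in the fit and a log2 fold change of 2.44 ± 0.53 (SE). It was 1.9997 when WT replicate 2 was left out, the lowest value with 1 library removed, and 3.06 when WT replicate 1 was, the highest. TPM gave a similar ratio of means, 5.97. In TPM, Smad7 was 8.24, 202 and 5.20 times Smad6 in the dKO-labelled libraries and 1.55 and 1.22 times in WT; the ratio in dKO replicate 2 rests on 7 counts of Smad6.

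Ski, the founding corepressor of its family, measured 16.3, 27.8 and 22.8 CPM in the dKO-labelled libraries and 23.1 and 13.8 CPM in WT. The groups overlapped, with a log2 fold change of 0.28 ± 0.46 (SE) that was -0.05 without WT replicate 2.

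Skil, its close relative, is the other gene behind the choice of this group. It had 3476, 6509 and 11119 counts in the dKO-labelled libraries and 1790 and 1205 in WT, or 128, 393 and 412 CPM against 68.0 and 48.3 CPM. The groups did not overlap, yet in CPM dKO replicate 1 was far nearer to WT than to dKO replicates 2 and 3. Skil averaged 311 ± 159 CPM in the dKO-labelled libraries (SD, n = 3) and 58.1 ± 14.0 CPM in WT (SD, n = 2), a log2 fold change of 2.42 ± 0.50 (SE). Leaving out 1 library gave between 2.17 and 2.80.

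In TPM the gap was smaller and the order within the dKO-labelled libraries changed. Skil had 8.53, 18.1 and 11.1 TPM in the dKO-labelled libraries and 4.37 and 2.09 TPM in WT, so that the ratio of group means was 3.89 in TPM and 5.35 in CPM. Replicate 3 was the highest library by counts, whereas replicate 2 was by TPM. By TPM, dKO replicate 1 was nearer to dKO replicate 3 than to either WT library. In TPM, Skil exceeded Ski by 1.39, 1.68 and 1.48 times in the dKO-labelled libraries and was at 0.582 and 0.519 times Ski in WT.

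The counts and the TPM of Skil stood in an unusual ratio. Without TMM scaling, Skil had 16.2, 22.5 and 37.4 CPM for each TPM in the dKO-labelled libraries and 15.6 and 20.6 in WT. Its mean of 22.4 was higher than that of 99.9% of the 9212 genes with at least 1 TPM and 50 counts in every library, whose median was 1.51. The other members averaged between 0.814 and 4.47. The highest ratio of Skil was 2.40 times its lowest, against a median of 1.17 over those genes. GENCODE M21 lists 6 transcripts of Skil between 716 and 6717 bases long, of which 1 retains an intron. Which of them gave the counts was not tested, and neither was the cause of the unusual ratio. The size of the Skil difference therefore depends on the unit, while its direction held in each.

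**Figure D2:**
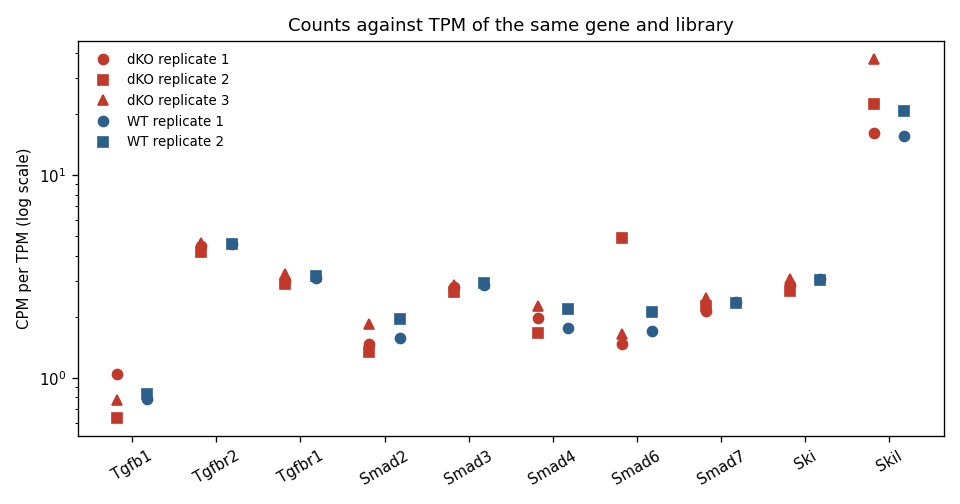
CPM without TMM scaling divided by TPM, on a log axis, for each member in each library; red marks are dKO-labelled libraries, blue marks WT. Skil lies at 15.6 to 37.4 while the other members' means stay at or under 4.47, and the single high Smad6 mark is dKO replicate 2 with 7 counts.

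Set side by side, 7 of the 10 members had a higher and 3 a lower fitted value in the dKO-labelled libraries, with a median log2 fold change of 0.42, against 0.04 over all 13696 tested genes. For the 8 members other than Skil and Smad7 the median was 0.21. The median of all 10 was 0.12 when WT replicate 2 was left out, 0.23 when dKO replicate 2 was and 0.84 when WT replicate 1 was. The WT libraries differed in the same way across the family. WT replicate 2 was below WT replicate 1 in 9 of the 10 members, Smad3 being the exception, against 50.6% of all tested genes.

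In 4 of 10 members (Skil, Smad7, Smad3 and Smad4) every dKO-labelled library lay above both WT libraries in CPM, against 13.7% of all tested genes, and in 0 of 10 below, against 15.6%. The rule chose members on this same contrast, so nothing is read from the count. It was 4 without dKO replicate 2 (22.6% of all tested genes) and 4 without WT replicate 2 (22% of them). Without WT replicate 1 it was 8 (25.9%). In TPM it was 5, Tgfbr1 being added, against 18.6% of all tested genes.

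**Figure D3:**
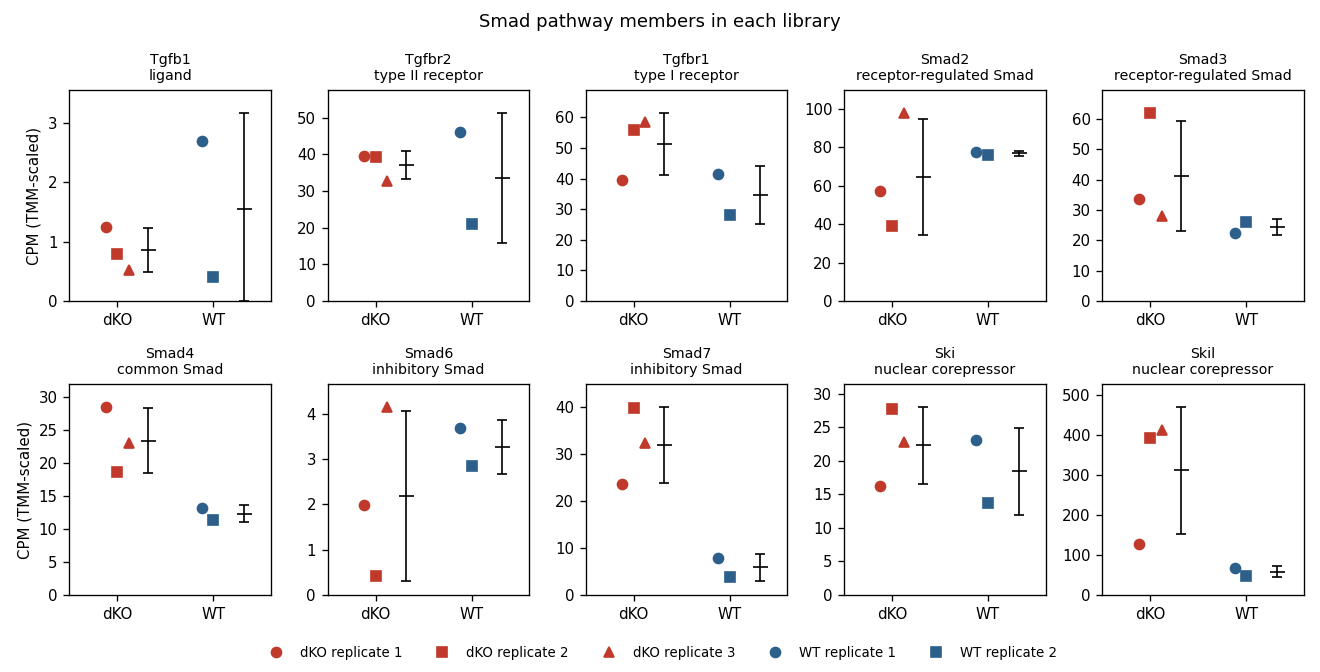
TMM-scaled CPM of the 10 members in each library on linear axes that start at 0; black marks with bars are the group mean and SD, with bars that would pass below 0 ending there. Skil, Smad7, Smad3 and Smad4 have every dKO-labelled library above both WT libraries, and the other panels overlap.

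No member passed the threshold of an adjusted p under 0.05, and no gene did. With edgeR (quasi-likelihood, Benjamini-Hochberg) the call count was 0 of 13696 genes (0%), although 1388 had an unadjusted p under 0.05, and limma-voom called 0. DESeq2 called 222 genes higher, 1.61% of those with an adjusted p, and 113 lower, 0.821%. Among the members it called Skil and Smad7, the genes already selected on this contrast. On log2(TPM + 1), limma called 0.0219% of genes higher and 0.0146% lower, and no member.

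**Figure D4:**
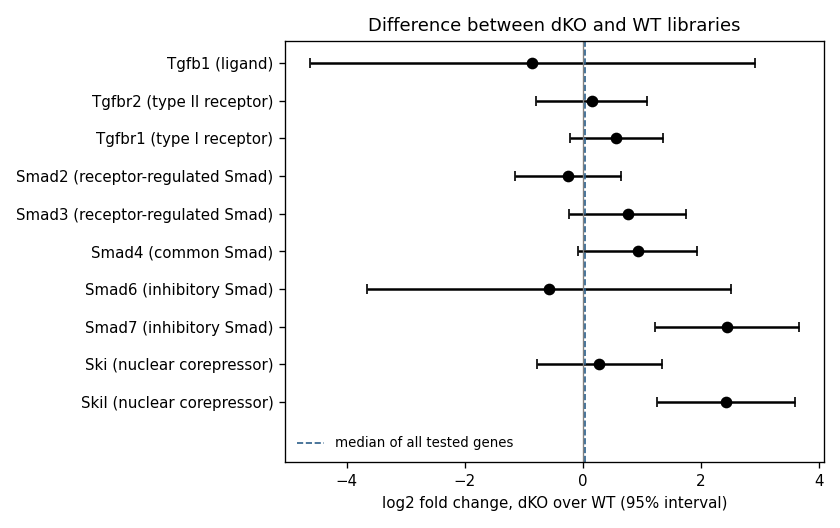
Log2 fold change of each member, dKO-labelled over WT libraries, from edgeR, with its 95% interval; the dashed line is the median of all tested genes. Skil and Smad7, the genes that led to the choice of the group, lie above 2, Tgfb1 and Smad6 have the widest intervals, and the intervals of the 8 other members include 0.

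As a description of the values that chose them, Skil and Smad7 were also set beside the profiles of other genes. By the root mean square distance between log2 CPM profiles over the 5 libraries, each centred on its gene's mean, Smad7 ranked 22nd in likeness to Skil among 10064 genes with a mean of at least 5 CPM, at a distance of 0.45. The closest to Skil were Phlda1, an early response gene (distance 0.20), Rwdd2a (0.26) and the tight junction gene Cldn5 (0.33). Phlda1 had 4.68, 11.3 and 10.7 CPM in the dKO-labelled libraries and 1.596 and 1.28 CPM in WT, with dKO replicate 1 the lowest of its group. The closest to Smad7 were Tns1, which encodes the focal adhesion protein tensin (0.23), Gm14326 (0.25) and Chic1 (0.25). Tns1 had 27.9, 44.2 and 25.5 CPM in the dKO-labelled libraries and 9.73 and 3.73 CPM in WT, highest in dKO replicate 2. Genes picked as the nearest profiles share such patterns with Skil or Smad7 through that choice, so nothing is read from it.

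The rest of the pathway was read from lists by role. Outside the 10 members, 56 of 71 listed genes were tested, and 46 had a higher and 10 a lower value in the dKO-labelled libraries, at a median log2 fold change of 0.74. Over all tested genes 52.2% had a higher value. Of the 56, none was called by edgeR (adjusted p of 0.247 or more), 11 had an unadjusted p under 0.05 against 10.1% of all tested genes, DESeq2 called 4 and limma-voom 0. The counts by list below leave the members out, and their overlap is in CPM unless TPM is named, read beside 13.7% of all tested genes with every dKO-labelled library above WT and 15.6% below.

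Among ligands and the proteins that activate them, 10 of 11 tested genes had higher values, with a median of 1.80. Several rest on few counts, and for genes counted in 1 group only the filter itself favours a difference. Inhba, an activin subunit, had 70, 0 and 101 counts in the dKO-labelled libraries and 0 in each WT library, and the median was the same with this gene set to its lower bound. Ltbp3, which binds latent TGF-beta, measured 28.3, 46.2 and 39.2 CPM in the dKO-labelled libraries and 13.1 and 8.65 CPM in WT, a log2 fold change of 1.80 ± 0.43 (SE). Itgav, the integrin chain that helps release active TGF-beta, measured 17.5, 22.0 and 25.3 CPM in the dKO-labelled libraries and 10.5 and 8.53 CPM in WT, and Gdf15 measured 0.332, 13.6 and 10.8 CPM in the dKO-labelled libraries and 0.570 and 1.32 CPM in WT. Ltbp3 did not overlap between groups in CPM or TPM, Itgav did not in CPM but did in TPM, and Gdf15 was low in dKO replicate 1.

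All 9 tested receptor genes had higher values in the dKO-labelled libraries, with a median of 0.71, and 4 of them did not overlap. The co-receptor Tgfbr3 measured 66.1, 123 and 175 CPM in the dKO-labelled libraries and 79.5 and 68.8 CPM in WT, and endoglin, Eng, measured 244, 199 and 136 CPM in the dKO-labelled libraries and 144 and 128 CPM in WT. Each overlapped WT through a different replicate. The BMP type I receptor Acvr1 had a log2 fold change of 2.75 ± 1.26 (SE) at levels of 8.71 CPM or less, and the decoy receptor Bambi 0.62 ± 0.41 (SE).

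The 5 tested Smads and adaptors outside the members all had higher values, with a median of 0.52. Smad5, a Smad of the BMP branch, measured 53.6, 75.6 and 58.7 CPM in the dKO-labelled libraries and 41.8 and 45.8 CPM in WT, without overlap in CPM but with overlap in TPM. Smad1, of the same branch, overlapped at 16.2, 6.77 and 22.4 CPM against 18.4 and 9.25 CPM. The endosomal adaptor gene Zfyve16 had a log2 fold change of 1.11 ± 0.50 (SE) and Zfyve9, which presents Smads to the receptor, 0.74 ± 1.91 (SE). That of Zfyve9 is higher by counts only, as its mean TPM was 0.183 in the dKO-labelled libraries and 0.217 in WT.

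Nuclear cofactors had a median of 0.47, with 7 of 10 higher. The acetyltransferases that serve as Smad coactivators, Crebbp and Ep300, had log2 fold changes of 0.91 ± 0.31 and 1.51 ± 0.60 (SE), the corepressor Tgif2 1.31 ± 0.58 (SE) and the deacetylase Hdac1 -0.36 ± 0.20 (SE). The groups of these 4 genes did not overlap in CPM, and in TPM those of Hdac1 did.

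Ubiquitin ligases and phosphatases that act on Smads had the lowest median of the lists, 0.21, with 6 of 10 higher and 4 lower, and all 4 lower ones lay below WT in every dKO-labelled library in CPM. In TPM 1 of the 4, Uchl5, did so, and the others overlapped. The deubiquitinase Uchl5 measured 173, 181 and 229 CPM in the dKO-labelled libraries and 243 and 338 CPM in WT. The ligases Smurf1 and Nedd4l had log2 fold changes of 2.39 ± 1.17 and 1.26 ± 0.81 (SE) and the Smad phosphatase Ppm1a 0.74 ± 0.48 (SE). Smurf1 is a ligase that Smad7 is known to bring to the receptors, and it stayed at or below 7.19 CPM. Smurf2, among the lower genes, measured 18.2, 2.66 and 21.7 CPM in the dKO-labelled libraries and 28.5 and 27.9 CPM in WT. Its log2 fold change was -0.99 ± 0.76 (SE).

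Of 14 tested Smad targets, 12 had higher values at a median of 0.77. The cell cycle inhibitor Cdkn1a measured 111, 173 and 160.3 CPM in the dKO-labelled libraries and 37.5 and 40.1 CPM in WT, Klf10 188, 430.0 and 362 CPM in the dKO-labelled libraries and 153 and 106 CPM in WT, and Junb 237, 291 and 154 CPM in the dKO-labelled libraries and 116 and 90.7 CPM in WT. These 3 did not overlap in CPM or TPM, and DESeq2 called each of them. Tgfbi, named for its induction by TGF-beta, was lower at 30.3, 36.9 and 18.9 CPM in the dKO-labelled libraries and 75.6 and 51.1 CPM in WT, also without overlap. The list thus held differences in both directions, none of them called by edgeR.

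**Figure D5:**
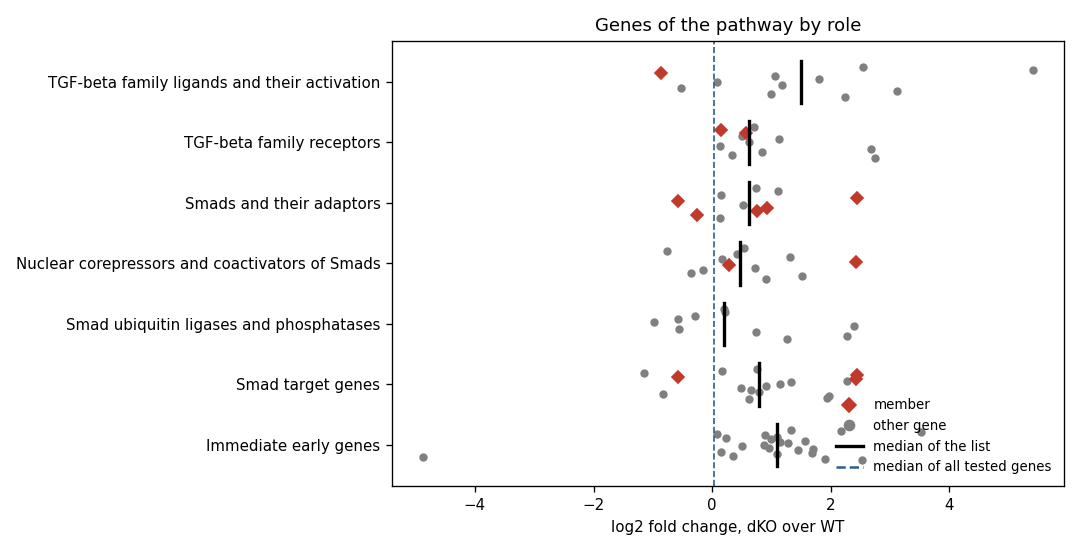
Log2 fold change of each tested gene by list, dKO-labelled over WT libraries; red diamonds are the 10 members, grey points other genes, black bars the list medians and the dashed line the median of all tested genes. Medians, members included, run from 0.21 for the ubiquitin ligases and phosphatases to 1.49 for the ligands; Inhba, at 0 counts in WT, is left out of the points.

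Other gene groups also differed between these libraries, and their part in these values was not tested. Immediate early genes, which answer stimulation within minutes, had higher values for 22 of 23 tested genes, the median log2 fold change being 1.09, and their summed level was 7891 to 10221 CPM in the dKO-labelled libraries and 4201 and 5068 CPM in WT. Among them Jun measured 970.0, 1101 and 896 CPM in the dKO-labelled libraries and 437 and 377 CPM in WT, Nr4a1 499, 1471 and 851 CPM in the dKO-labelled libraries and 44.1 and 121 CPM in WT, while the log2 fold change was 1.90 ± 0.34 (SE) for Btg2 and 1.08 ± 0.21 (SE) for Klf6. The group holds Junb, also a Smad target.

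Marker sums of other cell types were also taken, although a lineage-negative gate would remove mature erythroid, B, T, NK and myeloid cells. Erythroid markers summed to 169 to 183 CPM in the dKO-labelled libraries and 95.8 and 103 CPM in WT. Car1 alone gave 58.2 to 69.9 CPM of this in the dKO-labelled libraries and 6.57 and 6.45 CPM in WT, and Hba-a1 overlapped. Of the 8 genes, 2 lay above WT in every dKO-labelled library, against 13.7% of all tested genes. Megakaryocyte and platelet markers summed to 92.2 to 131 CPM in the dKO-labelled libraries and 65.5 and 80.9 CPM in WT. Those of monocytes, macrophages and dendritic cells summed to 116 to 186 CPM in the dKO-labelled libraries and 106 and 113 CPM in WT. H2-Aa alone gave 48.0 to 90.0 CPM of this in the dKO-labelled libraries and 30.9 and 28.2 CPM in WT, and Cd68 overlapped. In the megakaryocyte and the monocyte list 3 of 8 and 2 of 8 genes lay above WT throughout, against 13.7% of all tested genes. Mast cell and basophil markers overlapped in their sum, at 320.1 to 998 CPM in the dKO-labelled libraries and 193 and 404 CPM in WT, but 6 of 7 lay above WT in every dKO-labelled library, against 13.7% of all tested genes. For 1 of the 6, Tpsb2, this rests on 0.0737 CPM in dKO replicate 1 against 0.0380 and 0.0401 CPM in WT, which is at the detection limit. T and NK cell markers summed to 589 to 737 CPM in the dKO-labelled libraries, below the 755 and 1902 CPM in WT, but Nkg7 alone gave 562 to 677 CPM of this in the dKO-labelled libraries and 704 and 1881 CPM in WT, and Lck overlapped. B cell markers (137 to 383 CPM against 116 and 174 CPM) and endothelial and stromal markers (70.0 to 138 CPM against 96.0 and 125 CPM) overlapped in their sums. Of their genes, 4 of 9 and 1 of 8 lay above WT in every dKO-labelled library, against 13.7% of all tested genes. At 0 counts in every library were Gp6, Cd3e, Lepr and Pdgfra. In bulk RNA, fewer cells of a type and less RNA per cell cannot be told apart.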

How the data were processed

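Per library the authors deposited whole-number counts per gene and TPM (scaled to library and transcript length). Per the submitters' processing notes, the build was mm9 and the tools included TopHat2 2.1.1, HTSeq and RSEM 1.2.31; their roles are not stated there. Entries naming no gene, 30 of 33924, took 0.216% to 0.269% of counts and were left out. Counts were tested with edgeR 4.0.16 (R 4.3.3; TMM, filterByExpr, robust quasi-likelihood, 5 samples, no covariate), checked on simulated counts, with adjusted p under 0.05. Alternatives were DESeq2 1.42.0, limma 3.58.1 (voom; log2 TPM), other scalings and filters, a replicate block, and each library left out. With 1 WT library left, it is assumed to vary like the others.

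Members and lists were chosen with earlier results of these data known. Named genes are the members, Lrp5 and Lrp6, 4 non-members per pathway list with the smallest p, and the 3 nearest profiles to Skil and to Smad7. Hlf, Kit, Ly6a, Ctnnal1, Smurf2, Car1, Hba-a1, H2-Aa, Cd68, Tpsb2, Nkg7, Lck and genes in the last section were named after their values were seen. A count of 0 allows up to 0.107 to 0.187 CPM (3 counts per library, counting error only).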

Additional observations from a re-analysis of the deposited data

How the results depend on the processing

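Against 0 genes called by edgeR, DESeq2 called 335, edgeR without a filter on low counts 8, limma 5 on log2(TPM + 1) and 2 on log2(TPM + 0.1), and leaving out 1 library gave 0 to 5. The replicate number as a block gave 1. Deviations from the group mean of same-numbered libraries correlated at 0.033 and 0.046. With only 2 WT libraries, their deviations mirror each other, so these values cannot decide whether the numbers pair the samples. Leaving out 1 library moved the log2 fold change of Tgfb1 between -1.66 and 1.08, of Tgfbr2 between -0.32 and 0.82, of Smad2 between -0.68 and 0.016 and of Ski between -0.054 and 0.69; the cause was not tested. No other alternative turned a member's sign. Members with every library labelled dKO above WT numbered 5 in TPM and 4 to 8 with 1 library left out, a check chosen after seeing the data. Under the filter of 5 CPM in 2 libraries, Tgfb1 and Smad6 were not tested. These had the fewest counts of the members, at most 112 in a library; what depth adds to the spread between libraries was not tested.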

Other observations

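Several parts of the TGF-beta family gave no counts in any library. Among them were Smad9, a Smad of the BMP branch, the receptor Bmpr1b, the activin subunit Inhbb, the integrin chain Itgb8, the Smad partner Foxh1, and the Smad targets Cdkn2b and Ctgf. Tgfb2 had 39 counts in dKO replicate 1 and 0 elsewhere. Tgfb3 had 27, 0 and 127 counts in the dKO-labelled libraries, against 0 and 2 in WT. Lrrc32, which holds latent TGF-beta at the cell surface, had 2, 1 and 100 counts in the dKO-labelled libraries, against 0 in each WT library. Its relative Lrrc33 was abundant throughout, at 566, 693 and 385 CPM in the dKO-labelled libraries and 492 and 546 CPM in WT, with groups that overlapped.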
